A study of Mus musculus with 57 samples.

Results

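The livers of mice given acetaminophen, labelled APAP, were compared with the livers of mice given the gavage vehicle. All 6 libraries labelled APAP and all 13 gavage control libraries were taken, which made 19 of the 57 libraries in the series. The series was made to evaluate methods that estimate the cell types of a liver from its bulk RNA. Both groups were male wild-type (WT) C57BL/6JJcl mice of 6 weeks that were kept for 1 week, fasted for 12 h, dosed once by gavage and killed 24 h later. The control group received 0.5% methylcellulose. The labels state a volume of 10 µL/kg for every group, and the amount of acetaminophen and the fluid that carried it are not given in the sources used here. RNA came from 1 outer piece of the perfused liver's left lateral lobe, so each value describes a mixture of hepatocytes and other cells at 1 time after 1 dose in fasted young males.

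Acetaminophen is cleared mostly by conjugation to glucuronic acid or sulfate, and a part of it is oxidised by cytochrome P450 enzymes, Cyp2e1 foremost, to a reactive quinone imine. Glutathione traps this product until the store runs out, after which it binds proteins, damages mitochondria and kills hepatocytes around the central vein, where the oxidising enzymes are concentrated. Neutrophils and monocytes then enter the damaged zone, and surviving hepatocytes change their metabolism and divide to replace the lost cells.

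Each library held 16913744 to 24716360 estimated counts in the APAP group and 15188909 to 28093184 counts in the vehicle group. Levels are given as CPM, counts brought to a common library total, after scaling by the trimmed mean of M values (TMM), which makes 1 gene comparable between livers but not 1 gene with another. Where 3 levels are given for a group they are the lowest, the median and the highest liver, and where 6 are given they are those of APAP 1, 2, 4, 6, 8 and 11, in that order. A gene was called changed at an adjusted p under 0.05 in edgeR's quasi-likelihood test, and log2 fold changes are APAP over vehicle, ± their standard error. Albumin (Alb), the main secreted hepatocyte protein, was at 41933, 44634 and 56911 CPM in the APAP and 28308, 44676 and 76229 CPM in the vehicle livers, so the tissue matched its label. The library APAP 1 stood apart. Its TMM factor was 0.699 against 1.14 to 1.22 in the other APAP livers, vehicle 1 had a factor of 0.647, and the median gene in APAP 1 lay 0.858 log2 units from the vehicle mean against 0.311 to 0.530 in the other APAP livers and 0.153 to 0.321 in the vehicle livers.

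At 24 h, 4436 of 13939 genes tested (31.8%) had changed, 2407 higher (17.3%) and 2029 lower (14.6%), with a median log2 fold change over all tested genes of 0.07. Scaled by library total alone, the same test called 2937 genes higher and 1113 lower, so that 72.5% of the calls were higher against 54.3% with TMM scaling, and the median log2 fold change over all tested genes was 0.22. In 903 genes (6.48% of those tested) all 6 APAP livers lay beyond all 13 vehicle livers, 315 above and 588 below. Within mice numbered 1 to 4 the test called 824 genes and within mice numbered above 4 it called 2984. Without APAP 1 it called 4128 genes, 2067 higher and 2061 lower, of which 3564 were among the 4436. The members of 36 gene lists on liver function, injury and cell types were read against these shares. The lists with most members called lower held genes of hepatocyte metabolism. Those with most members called higher held genes of stress, growth, inflammation, myeloid and stromal cells and matrix.

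**Figure D1:**
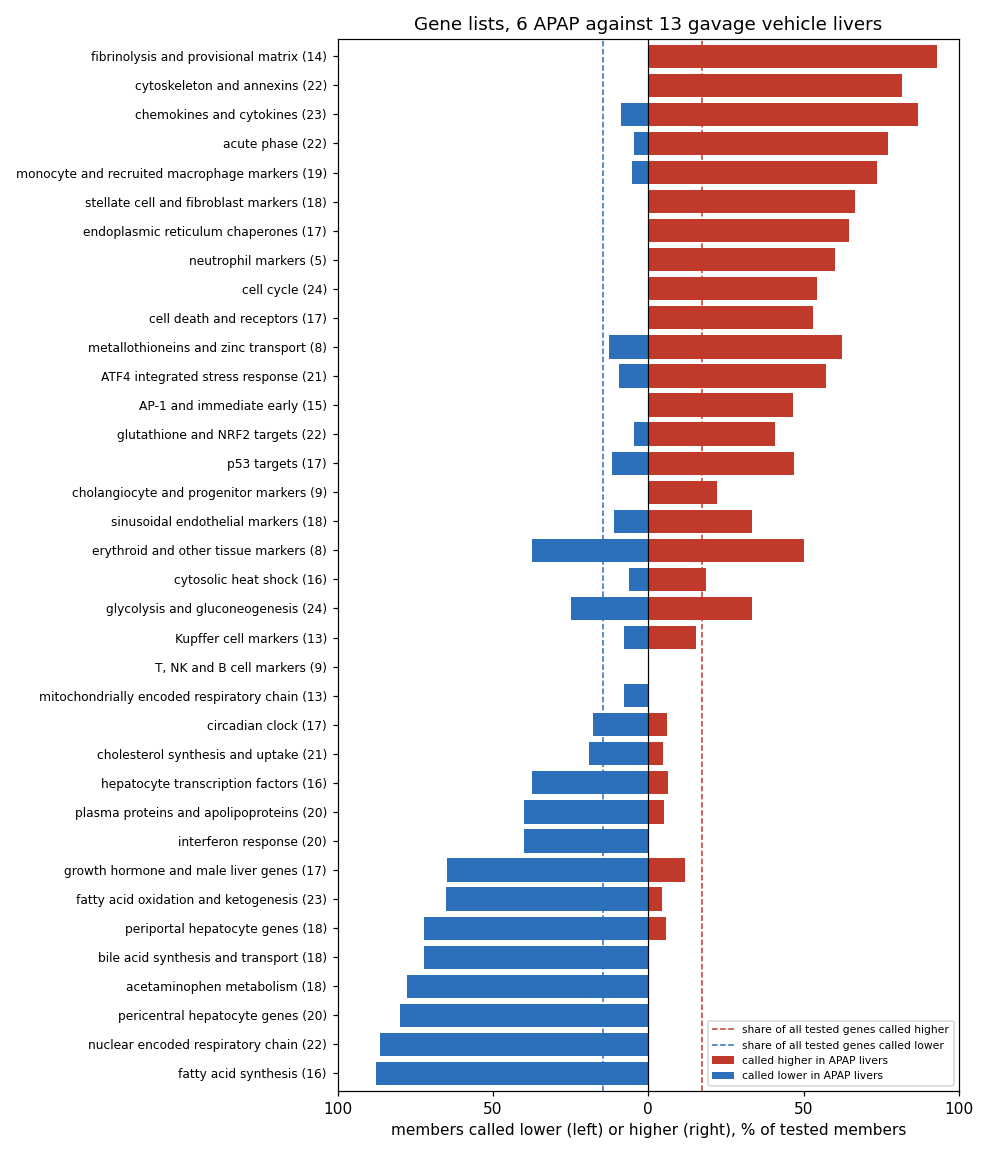
Share of the tested members of each of 36 gene lists called higher (red, right) or lower (blue, left) in 6 APAP against 13 vehicle livers, in percent, with the number of tested members in brackets. Dashed lines mark the shares over all tested genes, 17.3% higher and 14.6% lower.

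How far a list moved in a single liver was described by its degree, the median over its tested members of log2 CPM minus the mean of the 13 vehicle livers. In 8 of 36 lists the degrees of vehicle livers numbered 1 to 4 and of those numbered above 4 did not overlap. The lower numbers lay below in 6 of them: cell cycle, cell death and receptors, chemokines and cytokines, neutrophil markers, monocyte and recruited macrophage markers, and Kupffer cell markers. They lay above in the other 2, hepatocyte transcription factors and growth hormone and male liver genes. The vehicle range given beside each list spans all 13 livers. The 6 APAP livers did not share 1 pattern. Of the genes called higher, 73.7% lay above all vehicle livers in APAP 1, 75.3% in APAP 8 and 70.0% in APAP 11, against 44.5% to 51.1% in APAP 2, 4 and 6. Of the genes called lower, 54.1% lay below all vehicle livers in APAP 6 and 83.3% in APAP 11, with the other livers between them. APAP 1 led the stress, immediate early, chemokine and acute phase lists. APAP 8 and 11 led the loss of pericentral genes and held the highest neutrophil markers and cholesterol synthesis genes, and APAP 2, 4 and 6 held the highest cell cycle genes.

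**Figure D2:**
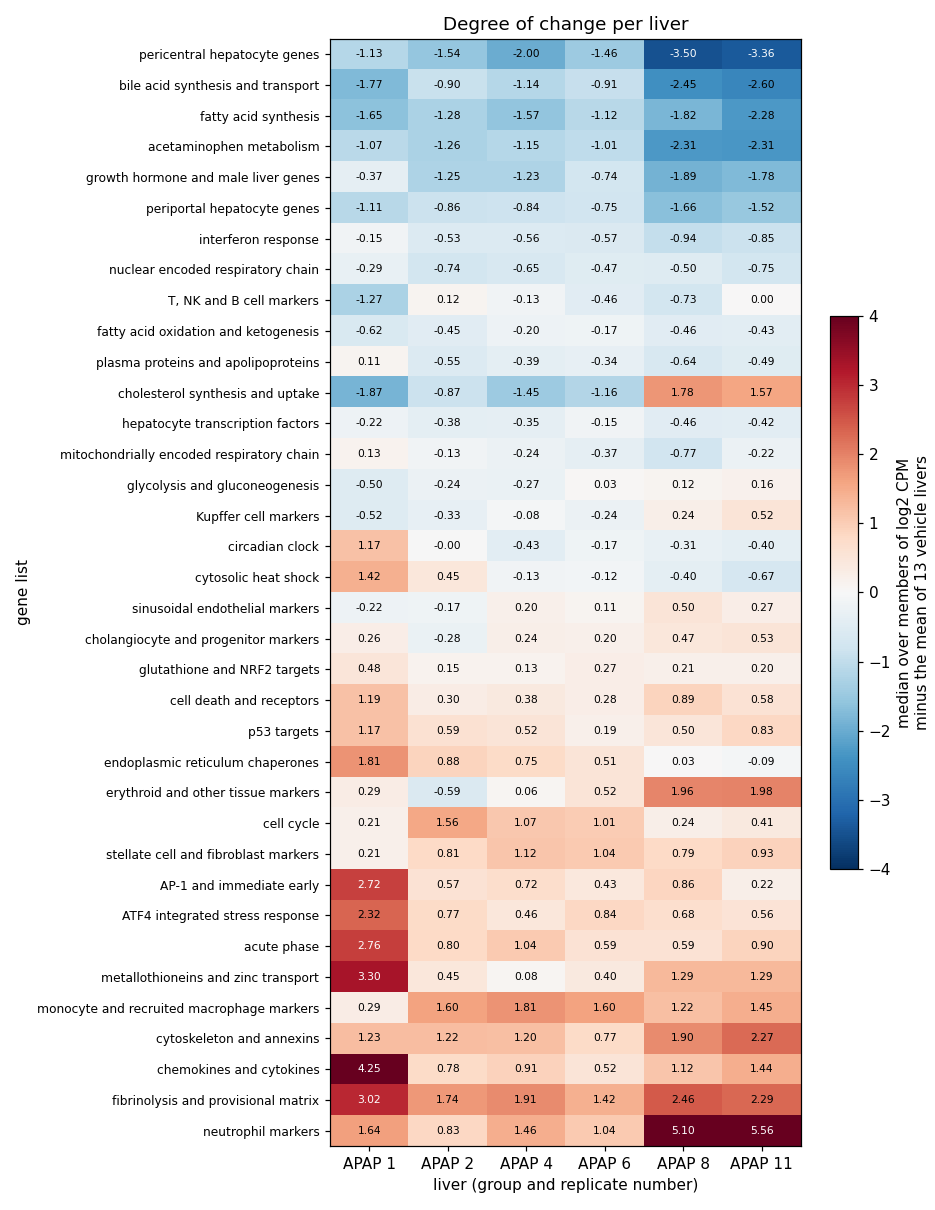
Degree of 36 gene lists (rows) in the 6 APAP livers (columns), as the median over members of log2 CPM minus the mean of 13 vehicle livers, with red above and blue below that mean and the colour held constant beyond 4. Chemokines and cytokines reached 4.25 in APAP 1, neutrophil markers 5.56 in APAP 11 and pericentral hepatocyte genes -3.50 in APAP 8.

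Most genes that process acetaminophen fell. Of the 18 members of the acetaminophen metabolism list, all tested, 14 were called lower (against 14.6% of all tested genes) and 0 higher (against 17.3%), with a median log2 fold change of -1.38. In bulk tissue, fewer cells of a type and less RNA per cell cannot be told apart. Cyp2e1, the main oxidising enzyme of acetaminophen, was at 2715, 517, 370.1, 1135, 21.2 and 27.3 CPM in the 6 APAP livers and at 1773, 2751 and 3366 CPM in the vehicle livers (log2 fold change -1.76 ± 0.65, adjusted p = 0.044). APAP 1 lay inside the vehicle range, and APAP 8 and 11 lay far below the other livers. The log2 fold change was -2.71 without APAP 1, adjusted p = 0.0037, and the call was lost when any of APAP 2, 4, 6 or 11 was left out (adjusted p = 0.083, 0.089, 0.052 and 0.055) or any vehicle liver other than vehicle 17 (adjusted p = 0.050 to 0.057). Cyp1a2, a second oxidising enzyme, was at 139.8, 240.4, 93.8, 245, 3.09 and 3.67 CPM against 399.6, 566 and 959.8 CPM (log2 fold change -2.32 ± 0.64, adjusted p = 0.0088), with every APAP liver below every vehicle liver. Cyp3a11, of the main drug-metabolising P450 family, was at 603, 679.5, 717, 673, 27.5 and 23.5 CPM against 761, 1446 and 1952 CPM (log2 fold change -1.65 ± 0.54, adjusted p = 0.025), also without overlap. For these P450 genes APAP 8 and 11 were the low pair.

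The same list holds the enzymes that conjugate acetaminophen. Ugt1a1, which attaches glucuronic acid to bilirubin and drugs, was at 65.9, 73.7 and 129.7 CPM in APAP and 206, 248 and 304 CPM in vehicle livers (log2 fold change -1.52 ± 0.15, adjusted p = 6.8e-07). Ugt1a6a, which glucuronidates phenols, was at 20.8, 44.4 and 64.7 CPM against 65.8, 95.2 and 137 CPM (log2 fold change -1.16 ± 0.21, adjusted p = 2.8e-04). Papss2, which makes the sulfate donor, was at 10.1, 19.8 and 31.4 CPM against 49.2, 64.7 and 77.6 CPM (log2 fold change -1.70 ± 0.22, adjusted p = 1.2e-05). In these genes the 2 groups did not overlap. The sulfotransferase Sult1a1 was not called, at 284, 102, 107, 112, 412 and 524 CPM against 203, 235 and 344 CPM (log2 fold change 0.084 ± 0.28, adjusted p = 0.85), and its APAP livers lay on both sides of the vehicle range. Among the glutathione S-transferases, which join glutathione to reactive compounds, Gsta3 was lower at 110.02, 399.6 and 611 CPM against 1633, 1815 and 2236 CPM (log2 fold change -2.37 ± 0.28, adjusted p = 4.7e-06). Gstp1 gave 2111, 2658 and 3009 CPM against 1783, 2522 and 4140.0 CPM and was not called (log2 fold change 0.037 ± 0.15, adjusted p = 0.88). The degree of the acetaminophen metabolism list was -1.07, -1.26, -1.15, -1.01, -2.31 and -2.31 in the 6 APAP livers, against -0.17 to 0.29 in the vehicle livers.

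Pericentral hepatocyte genes, which mark the zone around the central vein and largely depend on Wnt signals, had the lowest median of the 36 lists. Of 20 tested, 16 were called lower (against 14.6% of all tested genes) and 0 higher, with a median log2 fold change of -1.85. In 10 of the 20 the groups did not overlap, against 6.48% of all tested genes. Lgr5, a Wnt co-receptor, was at 0.0346, 0.168 and 0.309 CPM against 1.18, 2.51 and 3.85 CPM (log2 fold change -3.86 ± 0.33, adjusted p = 3.3e-07). Slc1a2, a glutamate transporter of the last hepatocytes before the vein, was at 15.1, 0.750, 0.0498, 1.86, 0.232 and 0.0346 CPM against 22.2, 34.9 and 63.2 CPM (log2 fold change -3.78 ± 0.85, adjusted p = 0.0022, and -6.04 without APAP 1, adjusted p = 2.0e-06). Oat, which breaks down ornithine, was at 220.4, 43.6, 23.6, 45.3, 12.6 and 16.9 CPM against 312, 459 and 638 CPM (log2 fold change -2.90 ± 0.48, adjusted p = 1.4e-04, and -3.99 without APAP 1, adjusted p = 5.3e-08). In Slc1a2 and Oat, APAP 1 kept the highest level of the 6. Glul, glutamine synthetase and the best known marker of that last cell layer, was at 1059.6, 24.2, 30.7, 29.1, 54.9 and 36.7 CPM against 325, 496 and 639 CPM, and was not called with all 6 livers (log2 fold change -1.29 ± 0.66, adjusted p = 0.15). With APAP 1 left out it was called lower (-3.84, adjusted p = 2.2e-09). Of the APAP livers, 5 lay below every vehicle liver and APAP 1 above every one. Axin2, a Wnt feedback gene, was at 0.199, 1.04 and 3.05 CPM against 2.29, 4.23 and 6.46 CPM (log2 fold change -1.82 ± 0.37, adjusted p = 8.8e-04).

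Other pericentral genes split the livers differently. Cyp2c29, a P450 of drug metabolism, was at 305, 149, 108, 182, 8.93 and 9.90 CPM against 738, 1072 and 1379 CPM (log2 fold change -3.05 ± 0.55, adjusted p = 3.0e-04), all below the vehicle range and lowest in APAP 8 and 11. Cyp2a5, a coumarin hydroxylase, was at 133, 779.6, 337, 687, 5.11 and 9.55 CPM against 203, 319 and 443 CPM and was not called (log2 fold change 0.023 ± 0.60, adjusted p = 0.98): APAP 2 and 6 lay above every vehicle liver and APAP 1, 8 and 11 below. The pericentral degree was -1.13, -1.54, -1.997, -1.46, -3.50 and -3.36 against -0.35 to 0.25 in the vehicle livers.

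Periportal hepatocyte genes, from the opposite end of the lobule, were lower too. Of 18 tested, 13 were called lower and 1 higher, with a median log2 fold change of -1.25 and degrees of -1.11, -0.86, -0.84, -0.75, -1.66 and -1.52 against -0.36 to 0.41 in the vehicle livers. Etnppl, a phosphoethanolamine lyase, was at 0.830, 12.1 and 17.8 CPM against 25.8, 65.9 and 119.7 CPM (log2 fold change -2.73 ± 0.51, adjusted p = 4.6e-04). The urea cycle enzymes Cps1 (258, 409.8 and 496 CPM against 599, 1029 and 1556 CPM, log2 fold change -1.46 ± 0.19, adjusted p = 1.4e-05) and Ass1 (516, 865 and 2015 CPM against 2161, 3068 and 6472 CPM, log2 fold change -1.73 ± 0.29, adjusted p = 1.6e-04) were lower in every APAP liver than in any vehicle liver. Hal, which starts histidine breakdown, was at 24.5, 131, 161, 142, 50.05 and 55.6 CPM against 185, 250.3 and 312 CPM (log2 fold change -1.36 ± 0.29, adjusted p = 0.0013), lowest in APAP 1. The adhesion gene Cdh1 was the 1 member called higher (log2 fold change 0.57 ± 0.13, adjusted p = 0.0024), at 22.4, 29.6 and 47.2 CPM against 17.97, 22.1 and 28.6 CPM.

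**Figure D3:**
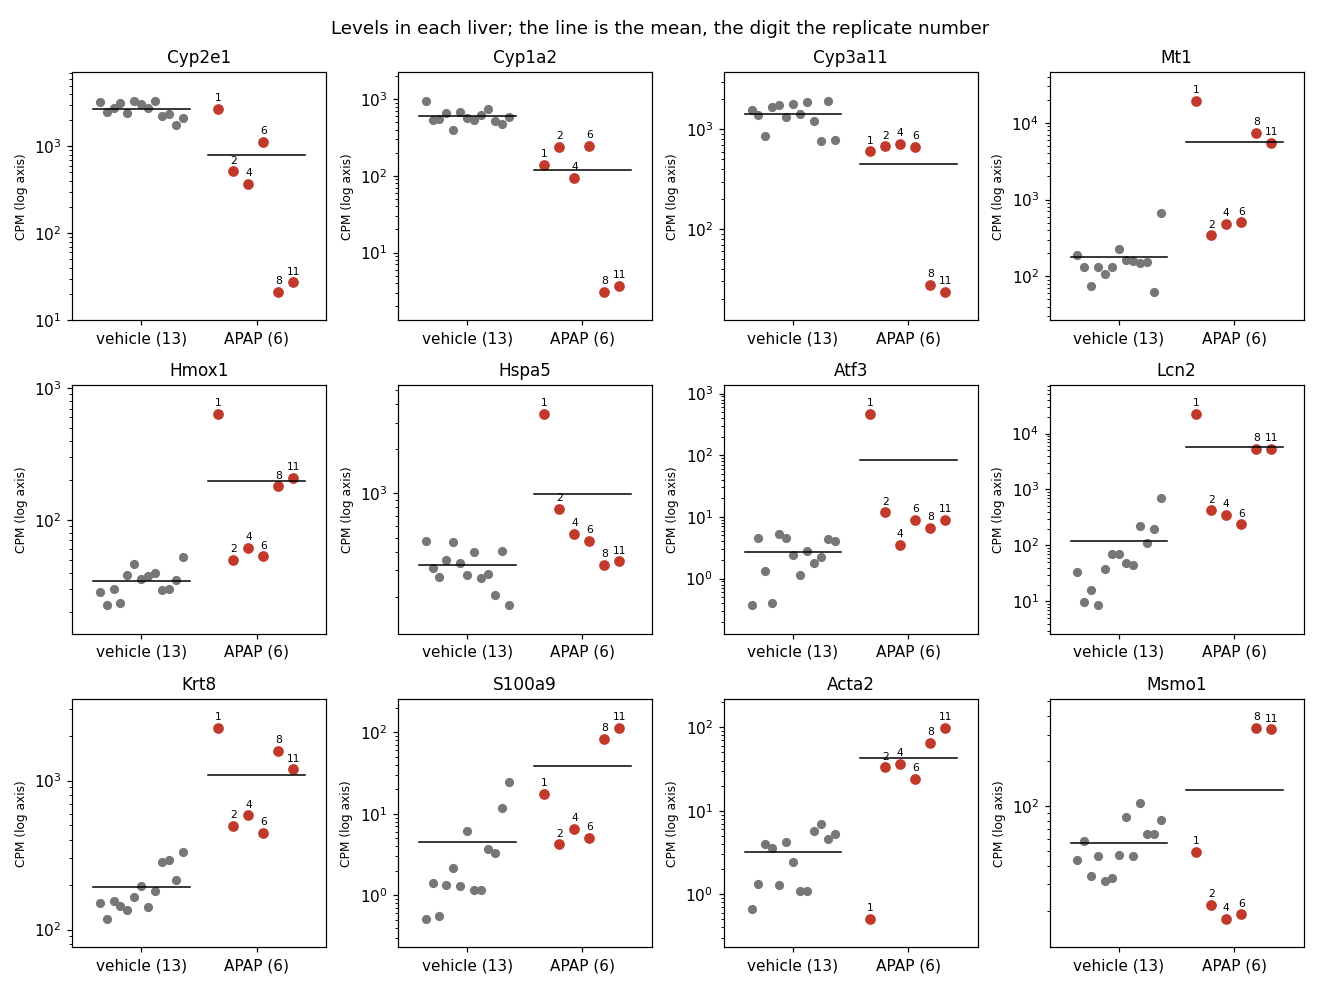
Levels of 12 genes in 13 vehicle livers (grey) and 6 APAP livers (red, with replicate number), in CPM on a log axis, with a line at each group's mean. Cyp2e1 ran from 21.2 to 2715 CPM over the APAP livers, Acta2 from 0.509 CPM in APAP 1 to 99.4 CPM in APAP 11, and Msmo1 lay above the vehicle livers in APAP 8 and 11 only.

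The metallothioneins, small proteins that bind zinc and copper, rose by large and very unequal amounts. Mt1 was at 19515, 342, 484, 507, 7385 and 5471 CPM against 62.9, 150.0 and 668 CPM (log2 fold change 4.96 ± 0.67, adjusted p = 1.7e-05, and 3.97 without APAP 1, adjusted p = 6.1e-05). Mt2 was at 15964, 294, 272, 318, 5460.4 and 4272 CPM against 20.3, 51.0 and 447 CPM (log2 fold change 5.66 ± 0.81, adjusted p = 3.3e-05, 4.60 without APAP 1, adjusted p = 1.2e-04, 6.26 without vehicle 18, adjusted p = 7.1e-06). APAP 1, 8 and 11 lay above every vehicle liver, while APAP 2, 4 and 6 lay within the vehicle range. Mt3, better known from brain, was at 4.16, 0.862, 1.84, 1.28, 15.4 and 17.8 CPM and at most 0.214 CPM in a vehicle liver, too low there for a fold change. Of 8 tested members of the metallothioneins and zinc transport list, 5 were called higher and 1 lower. Mt3 is 1 of the 8 tested, and it passed the filter on low counts through the APAP livers only. Slc39a14, a zinc importer, was at 2042, 78.0, 73.4, 109, 323 and 239 CPM against 57.8, 82.4 and 115 CPM (log2 fold change 2.51 ± 0.48, adjusted p = 5.5e-04, and 0.97 without APAP 1, adjusted p = 0.0071).

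The start regions of the metallothionein genes are shown because Mt1 and Mt2 lie close together on chromosome 8 and moved together. Each run is the 250 bases before the gene's first listed start in RefSeq, 5′ to 3′ on the gene's strand and on build GRCm38.p6. Matches to TGCACNC or TGCGCNC, the core of the zinc factor MTF1's element, are in capitals on either strand. The Mt1 run lies at chr8:94178839-94179088 on the plus strand and has 1 match. The Mt2 run at chr8:94172368-94172617, also on the plus strand, has 3. Bases outside these runs were not searched, so the counts are not those of the whole promoter.
Mt1: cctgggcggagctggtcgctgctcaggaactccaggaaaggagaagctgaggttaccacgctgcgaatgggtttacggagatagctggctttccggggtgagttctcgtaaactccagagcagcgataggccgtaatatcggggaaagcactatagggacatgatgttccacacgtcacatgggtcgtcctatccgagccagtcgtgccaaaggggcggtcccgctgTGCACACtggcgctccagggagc
Mt2: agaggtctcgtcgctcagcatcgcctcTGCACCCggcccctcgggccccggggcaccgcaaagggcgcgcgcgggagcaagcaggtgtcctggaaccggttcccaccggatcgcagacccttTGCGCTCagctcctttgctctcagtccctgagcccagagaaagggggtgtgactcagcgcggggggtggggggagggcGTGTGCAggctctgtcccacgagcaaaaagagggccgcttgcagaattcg
Such a match stood in 4 of the 6 list promoters in the table, in 3 of the 4 whose gene was called higher, and in 21.3% of all 27025 promoters in the table. The motif is short, and a match describes the letters only. Mt3 had no match in its 250 bases.

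ATF4 target genes, the transcriptional arm of the integrated stress response, were mostly higher. Of 21 tested members of the ATF4 integrated stress response list, 12 were called higher and 2 lower, with a median log2 fold change of 1.04. Without APAP 1 the count was 10 higher and 2 lower and the median 0.68. The degrees were 2.32, 0.77, 0.46, 0.84, 0.68 and 0.56 against -0.64 to 0.45. Psat1, a serine synthesis enzyme, was at 8.06, 11.7 and 20.2 CPM against 0.424, 0.975 and 1.57 CPM (log2 fold change 3.73 ± 0.23, adjusted p = 1.1e-08), every APAP liver above every vehicle liver. Fgf21, a stress hormone of the liver, was at 3.39, 4.44 and 6.94 CPM against 0.175, 0.469 and 3.12 CPM (log2 fold change 2.73 ± 0.45, adjusted p = 1.5e-04). Nupr1, a stress-induced chromatin protein, was at 3.43, 7.68 and 20.6 CPM against 0.670, 1.52 and 3.35 CPM (log2 fold change 2.55 ± 0.36, adjusted p = 2.8e-05). Atf3, an early stress factor, was at 466, 11.9, 3.54, 8.90, 6.64 and 9.03 CPM against 0.369, 2.41 and 5.28 CPM (log2 fold change 4.94 ± 0.83, adjusted p = 1.7e-04, and 1.55 without APAP 1, adjusted p = 0.012), so its size rested on APAP 1. Asns, asparagine synthetase, was at 25.4, 5.66, 5.88, 10.4, 16.6 and 9.34 CPM against 1.23, 4.80 and 9.10 CPM (log2 fold change 1.41 ± 0.32, adjusted p = 0.0022). Chac1, which degrades glutathione, was at 74.6, 4.53, 10.1, 18.03, 1.06 and 1.66 CPM against 0.356, 2.40 and 6.72 CPM (log2 fold change 2.56 ± 0.72, adjusted p = 0.010), and its call was lost without APAP 1 (1.19, adjusted p = 0.19). Shmt2, a mitochondrial serine enzyme, went the other way, at 56.3, 76.5 and 96.1 CPM against 140.1, 167 and 243 CPM (log2 fold change -1.22 ± 0.13, adjusted p = 1.7e-06). Ddit3 was listed at 0 in APAP 4 and 8 and at 100.3, 92.0 and 93.4 CPM in APAP 1, 2 and 6, a jump that leaves its estimates uncertain, and it was not called.

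The start regions of Chac1 and Asns are shown as examples of the genes called higher that carry TGATGNAA, the composite element of ATF4 with C/EBP factors, in capitals on either strand. Chac1 lies at chr2:119350992-119351241 on the plus strand and Asns at chr6:7693210-7693459 on the minus strand, both in GRCm38.p6 from RefSeq.
Chac1: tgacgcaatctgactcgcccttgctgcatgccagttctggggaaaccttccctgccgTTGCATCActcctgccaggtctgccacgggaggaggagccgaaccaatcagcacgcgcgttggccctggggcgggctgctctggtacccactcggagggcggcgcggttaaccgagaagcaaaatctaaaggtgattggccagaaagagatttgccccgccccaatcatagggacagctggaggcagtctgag
Asns: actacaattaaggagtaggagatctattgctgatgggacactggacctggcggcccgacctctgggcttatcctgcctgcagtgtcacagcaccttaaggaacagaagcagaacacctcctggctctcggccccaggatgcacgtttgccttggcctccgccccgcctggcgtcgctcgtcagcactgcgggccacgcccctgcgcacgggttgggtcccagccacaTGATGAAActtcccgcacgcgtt
This motif stood in 5 of the 20 list promoters in the table, those of Atf3, Chac1, Asns, Nupr1 and Fgf21. All 5 were among the 12 members called higher, and 3.53% of all 27025 promoters hold it. The promoter of Psat1, the member called with the lowest adjusted p, had no match in its 250 bases.

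The antioxidant genes controlled by NRF2 included both called and flat members. Of 22 tested members of the glutathione and NRF2 targets list, 9 were called higher and 1 lower, with a median log2 fold change of 0.45, against 7 higher, 0 lower and a median of 0.11 without APAP 1, and with degrees of 0.48, 0.15, 0.13, 0.27, 0.21 and 0.20 against -0.18 to 0.20. Hmox1, which breaks down heme, was at 636, 49.96, 61.2, 53.1, 179.7 and 209 CPM against 22.6, 35.1 and 52.8 CPM (log2 fold change 2.52 ± 0.38, adjusted p = 6.2e-05, and 1.67 without APAP 1, adjusted p = 1.6e-04). Srxn1, which repairs oxidised peroxiredoxins, was at 504, 74.7, 61.4, 69.1, 116 and 54.8 CPM against 17.3, 30.0 and 46.9 CPM (log2 fold change 2.34 ± 0.37, adjusted p = 9.8e-05, and 1.38 without APAP 1, adjusted p = 1.3e-04), without overlap. Nqo1, a quinone reductase, was at 8.65, 11.6 and 18.8 CPM against 4.65, 6.45 and 8.46 CPM (log2 fold change 0.87 ± 0.16, adjusted p = 3.5e-04). Abcc4, an efflux pump of the hepatocyte's blood side, was at 3.90, 5.96, 6.08, 7.08, 0.763 and 0.623 CPM against 0.487, 1.07 and 1.41 CPM (log2 fold change 1.91 ± 0.36, adjusted p = 5.0e-04), with APAP 8 and 11 in the vehicle range and the other 4 livers above it. Gclm, a subunit of the enzyme that limits glutathione synthesis, gave 418, 459 and 499.8 CPM against 328, 442 and 583 CPM and was not called (log2 fold change 0.039 ± 0.11, adjusted p = 0.82). The letters TGACNNNGC, the core of the NRF2 and MAF element, stood in 6 of 18 list promoters in the table, in 2 of the 7 whose gene was called higher, and in 10.1% of all promoters.

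Chaperones of the endoplasmic reticulum were higher, with a count that changed with the livers used. Of 17 tested members of the endoplasmic reticulum chaperones list, 11 were called higher and 0 lower, with a median log2 fold change of 0.70. Without APAP 1 the count was 6 higher and 0 lower. Within mice numbered 1 to 4 it was 7 higher (median 1.18), and within mice numbered above 4 it was 1 higher (median 0.10). The degrees were 1.81, 0.88, 0.75, 0.51, 0.030 and -0.091 against -0.47 to 0.55, so APAP 8 and 11 lay at the vehicle mean. Hspa5 (BiP), the central chaperone of this compartment, was at 3425, 787, 532, 475, 327 and 345 CPM against 175, 312 and 472 CPM (log2 fold change 1.59 ± 0.38, adjusted p = 0.0030, and 0.60 without APAP 1, adjusted p = 0.047). Sdf2l1, a chaperone cofactor, was at 211, 145, 104, 97.3, 67.5 and 52.0 CPM against 30.7, 44.1 and 78.5 CPM (log2 fold change 1.22 ± 0.24, adjusted p = 7.1e-04). Creld2 was at 599, 188, 104, 105, 83.7 and 48.5 CPM against 31.5, 58.0 and 98.7 CPM (log2 fold change 1.58 ± 0.39, adjusted p = 0.0046), with the call lost without APAP 1 (0.75, adjusted p = 0.071). In each of these genes APAP 1 was highest and APAP 8 and 11 lay in the vehicle range.

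Of 16 tested cytosolic heat shock genes, 3 were called higher and 1 lower, near the background of 17.3% and 14.6% of all tested genes, and without APAP 1 the count was 2 higher and 3 lower. The degrees of the cytosolic heat shock list were 1.42, 0.45, -0.13, -0.12, -0.40 and -0.67 against -0.33 to 0.56. Hspb1, a small heat shock protein, was at 49.8, 58.5, 68.3, 101, 20.3 and 9.97 CPM against 9.93, 14.6 and 26.1 CPM (log2 fold change 1.59 ± 0.31, adjusted p = 6.2e-04), highest in APAP 6. Hspa1a, the inducible HSP70, was at 16.96, 6.63, 4.58, 9.48, 0.232 and 0.242 CPM against 0.176, 1.06 and 1.63 CPM (log2 fold change 2.74 ± 0.56, adjusted p = 1.0e-03), but its near-identical copy Hspa1b shares reads with it, so that the split between them is uncertain. The heat shock factor core TTCNNGAA stood in 2 of 12 list promoters in the table and in 0 of the 3 whose gene was called higher, against 7.1% of all promoters.

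Of 17 tested targets of p53, the factor that answers DNA damage, 8 were called higher and 2 lower, against 17.3% and 14.6% of all tested genes, with a median log2 fold change of 0.65 over the p53 targets list. Cdkn1a (p21), which stops the cell cycle, was at 272, 37.8, 40.2, 30.1, 110.3 and 90.7 CPM against 3.84, 13.8 and 24.1 CPM (log2 fold change 2.86 ± 0.42, adjusted p = 4.5e-05, and 2.21 without APAP 1, adjusted p = 1.9e-04), above every vehicle liver in all 6. Aen, a nuclease of the p53 response, was at 12.6, 17.1 and 35.8 CPM against 5.54, 8.53 and 11.9 CPM (log2 fold change 1.17 ± 0.21, adjusted p = 2.8e-04). Bax, a mitochondrial death protein, was at 56.9, 79.9 and 162 CPM against 16.7, 39.0 and 74.8 CPM (log2 fold change 1.23 ± 0.29, adjusted p = 0.0028). Bbc3 (PUMA), another death protein, was lower at 1.94, 4.19 and 5.62 CPM against 3.93, 10.8 and 13.6 CPM (log2 fold change -1.26 ± 0.29, adjusted p = 0.0024). The p53 gene itself, Trp53, gave 7.38, 17.3 and 22.6 CPM against 12.5, 15.8 and 20.4 CPM and was not called (log2 fold change 0.049 ± 0.16, adjusted p = 0.85). The degrees were 1.17, 0.59, 0.52, 0.19, 0.50 and 0.83 against -0.46 to 0.38 in the vehicle livers.

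Of 24 tested members of the cell cycle list, 13 were called higher and 0 lower, with a median log2 fold change of 1.04 (0.66, with 10 called, without APAP 2) and degrees of 0.21, 1.56, 1.07, 1.01, 0.24 and 0.41 against -0.51 to 0.43. APAP 2, 4 and 6 lay above the vehicle range and APAP 1, 8 and 11 inside it, though APAP 1 lay above the 4 vehicle livers numbered 1 to 4 (-0.51 to -0.18). Within mice numbered 1 to 4 (3 APAP, 4 vehicle), 1 of 21 tested was called higher (median log2 fold change 1.53). Within mice numbered above 4 (3 APAP, 9 vehicle), 5 of 24 were (median 0.34). Mcm2, Mcm3 and Mcm5, parts of the DNA helicase loaded before replication, were all called. Mcm3 was at 5.17, 10.3, 11.3, 8.51, 7.23 and 4.78 CPM against 2.10, 3.84 and 5.86 CPM (log2 fold change 1.09 ± 0.21, adjusted p = 6.3e-04). Mcm5 was at 1.61, 8.21, 8.62, 7.16, 3.05 and 3.01 CPM against 1.11, 1.83 and 4.11 CPM (log2 fold change 1.22 ± 0.32, adjusted p = 0.0059). Ccnd1 (cyclin D1), which starts the cycle, was at 8.82, 18.3 and 24.3 CPM against 4.39, 7.22 and 13.2 CPM (log2 fold change 1.20 ± 0.23, adjusted p = 5.8e-04). Ccne1 (cyclin E1) was at 11.96, 1.80, 1.59, 1.59, 6.04 and 2.04 CPM against 0.184, 0.448 and 0.886 CPM (log2 fold change 3.13 ± 0.41, adjusted p = 1.4e-05, and 2.47 without APAP 1, adjusted p = 3.6e-05), highest in APAP 1, where the helicase genes were not. The mitotic genes stayed at a few CPM. Cdk1 was at 1.19, 6.82, 3.69, 3.64, 1.96 and 1.25 CPM against 0.792, 1.41 and 3.63 CPM (log2 fold change 1.01 ± 0.34, adjusted p = 0.028). Its call was lost without APAP 2 (0.61, adjusted p = 0.17), APAP 4 (0.95, adjusted p = 0.055) or APAP 6 (0.96, adjusted p = 0.053). Top2a gave 0.254, 2.89, 0.698, 0.851, 0.166 and 0.519 CPM against 0, 0.419 and 1.04 CPM and was not called (log2 fold change 0.93 ± 0.54, adjusted p = 0.20, and 0.090 without APAP 2, adjusted p = 0.92).

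Cytoskeleton genes and annexins rose in all 6 livers. Of 22 tested members of the cytoskeleton and annexins list, 18 were called higher and 0 lower, with a median log2 fold change of 1.35. In 9 of the 22 the groups did not overlap, against 6.48% of all tested genes. The degrees were 1.23, 1.22, 1.20, 0.77, 1.90 and 2.27 against -0.37 to 0.61. Anxa2, a membrane protein that also binds plasminogen activator, was at 109.5, 147 and 324 CPM against 11.4, 16.7 and 49.2 CPM (log2 fold change 3.11 ± 0.30, adjusted p = 6.4e-07). S100a11, a calcium-binding protein that pairs with annexins, was at 126, 267 and 514 CPM against 15.7, 24.9 and 66.4 CPM (log2 fold change 3.23 ± 0.31, adjusted p = 6.1e-07). Krt8, a keratin of hepatocytes and duct cells, was at 2267, 495, 585, 447, 1583 and 1186 CPM against 118, 164 and 332 CPM (log2 fold change 2.50 ± 0.29, adjusted p = 4.6e-06). Tubb6, a tubulin, was at 240.3, 31.2, 31.7, 24.4, 76.8 and 63.1 CPM against 5.42, 9.04 and 20.4 CPM (log2 fold change 2.96 ± 0.37, adjusted p = 8.5e-06, and 2.19 without APAP 1, adjusted p = 9.3e-06). In S100a11, Krt8 and Tubb6, APAP 1, 8 and 11 stood above APAP 2, 4 and 6. Tubb2a, another tubulin, gave 104, 242 and 535 CPM against 148, 214 and 523 CPM and was not called (log2 fold change -0.026 ± 0.33, adjusted p = 0.96).

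Of 15 tested members of the AP-1 and immediate early list, factors switched on within minutes of a stimulus, 7 were called higher and 0 lower, with degrees of 2.72, 0.57, 0.72, 0.43, 0.86 and 0.22 against -1.11 to 0.67. Klf6, a wound-response factor, was at 115, 7.42, 7.72, 7.27, 21.2 and 19.7 CPM against 0.590, 2.77 and 4.01 CPM (log2 fold change 3.53 ± 0.50, adjusted p = 2.8e-05, and 2.31 without APAP 1, adjusted p = 6.1e-05). Myc, a transcription factor of cell growth, was at 100.2, 10.4, 7.82, 26.6, 25.7 and 17.03 CPM against 1.503, 3.03 and 13.2 CPM (log2 fold change 3.10 ± 0.47, adjusted p = 5.6e-05, and 2.27 without APAP 1, adjusted p = 2.5e-04). Ier3, a survival gene, was at 231, 5.10, 4.14, 3.09, 75.5 and 49.3 CPM against 0.0738, 0.645 and 4.42 CPM (log2 fold change 5.83 ± 0.78, adjusted p = 1.7e-05, and 4.68 without APAP 1, adjusted p = 5.5e-05). Fosl1 was at 1.74, 4.22 and 20.9 CPM in the APAP livers and at most 0.221 CPM in a vehicle liver, and no fold change is given. It is 1 of the 15 tested and passed the filter on low counts through the APAP livers only. The classical members Fos (5.95, 20.4 and 39.3 CPM against 0.554, 10.45 and 40.1 CPM) and Jun (15.7, 28.7 and 146 CPM against 4.63, 28.2 and 54.2 CPM) were not called.

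Among cell death genes and their receptors, 9 of 17 tested were called higher and 0 lower, with a median log2 fold change of 0.60. Tnfrsf12a, the receptor of the cytokine TWEAK, was at 317, 39.0, 47.7, 37.4, 333 and 195 CPM against 5.76, 8.56 and 18.5 CPM (log2 fold change 4.08 ± 0.41, adjusted p = 9.5e-07). Bcl2l1, which protects cells from death, was at 27.1, 49.0 and 194 CPM against 13.6, 25.7 and 35.3 CPM (log2 fold change 1.68 ± 0.30, adjusted p = 2.8e-04). Ripk3, the kinase of necroptosis, was at 1.86, 2.91 and 4.58 CPM against 0.590, 1.38 and 2.80 CPM (log2 fold change 0.99 ± 0.29, adjusted p = 0.013), and its substrate Mlkl gave 3.52, 4.44 and 5.71 CPM against 1.56, 3.24 and 4.93 CPM and was not called (log2 fold change 0.52 ± 0.21, adjusted p = 0.061). It was called without vehicle 12 (0.56, adjusted p = 0.049) or vehicle 16 (0.57, adjusted p = 0.044).

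Most acute phase genes, which hepatocytes switch on under interleukin 6, were higher, and their number depended on APAP 1. Of 22 tested members of the acute phase list, 17 were called higher and 1 lower, against 10 higher and 1 lower without APAP 1, with a median log2 fold change of 1.596 with all 6 livers and 0.80 without APAP 1. The degrees were 2.76, 0.80, 1.04, 0.59, 0.59 and 0.90 against -0.48 to 0.67. Fgb, the beta chain of fibrinogen, was at 1799, 2170.3 and 5195 CPM against 487, 690.0 and 933 CPM (log2 fold change 1.87 ± 0.18, adjusted p = 7.4e-07), above every vehicle liver in all 6. Serpina3n, a protease inhibitor, was at 4216, 512, 710.2, 517, 1636 and 2363 CPM against 200.3, 281 and 479 CPM (log2 fold change 2.47 ± 0.32, adjusted p = 1.4e-05). Lcn2, which holds iron from bacteria, was at 22290.4, 424, 349, 238, 5292 and 5295 CPM against 8.55, 49.1 and 697 CPM (log2 fold change 5.55 ± 0.95, adjusted p = 2.0e-04, 4.26 without APAP 1, adjusted p = 0.0012, 6.28 without vehicle 18, adjusted p = 4.5e-05), so the livers split into APAP 1, 8 and 11 and the lower APAP 2, 4 and 6. Saa1 was at 17426, 2503, 1828, 1312, 251 and 395 CPM against 73.4, 211 and 2196 CPM (log2 fold change 3.31 ± 0.75, adjusted p = 0.0021), with APAP 8 and 11 in the vehicle range, and its call was lost without APAP 1 (1.66, adjusted p = 0.060), while without vehicle 18 its fold change was 3.997 (adjusted p = 1.6e-04). Reads of Saa1 and Saa2 are hard to separate.

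Most chemokines and cytokines were higher, and APAP 1 stood far above the rest. Of 23 tested members, 20 were called higher and 2 lower, against 13 higher and 3 lower without APAP 1, and the degrees were 4.25, 0.78, 0.91, 0.52, 1.12 and 1.44 against -0.78 to 0.97. DESeq2 called 10 higher and 2 lower and gave no adjusted p for the other 11. Ccl2, the main attractant of monocytes, was at 514, 17.8, 9.72, 9.36, 15.9 and 28.6 CPM against 0.175, 2.11 and 9.83 CPM (log2 fold change 5.09 ± 0.86, adjusted p = 1.6e-04, and 2.49 without APAP 1, adjusted p = 0.0044). Ccl7, a related monocyte attractant, was at 85.7, 7.01, 4.88, 3.29, 2.46 and 6.68 CPM against 0, 0.212 and 1.84 CPM (log2 fold change 5.09 ± 0.81, adjusted p = 9.5e-05, and 3.20 without APAP 1, adjusted p = 0.0014). Cxcl1, a neutrophil attractant, was at 958, 24.7, 21.1, 18.03, 75.0 and 49.2 CPM against 0.443, 7.50 and 32.4 CPM (log2 fold change 4.20 ± 0.79, adjusted p = 4.7e-04, and 1.86 without APAP 1, adjusted p = 0.021). Without APAP 1 these calls held at smaller size. Ccl6, made by myeloid cells, was at 33.4, 27.7, 54.3, 22.7, 100.1 and 127 CPM against 3.90, 13.5 and 16.97 CPM (log2 fold change 2.43 ± 0.35, adjusted p = 3.2e-05), highest in APAP 8 and 11 and above every vehicle liver in all 6. Il1b was at 29.0, 1.65, 2.29, 1.12, 2.82 and 5.16 CPM against 0.778, 1.94 and 6.15 CPM (log2 fold change 1.64 ± 0.55, adjusted p = 0.028), and its call was lost without APAP 1 (0.24, adjusted p = 0.73). Cxcl12, a stromal chemokine, was lower at 54.6, 80.9 and 95.5 CPM against 95.8, 119 and 148 CPM (log2 fold change -0.61 ± 0.12, adjusted p = 9.2e-04).

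**Figure D4:**
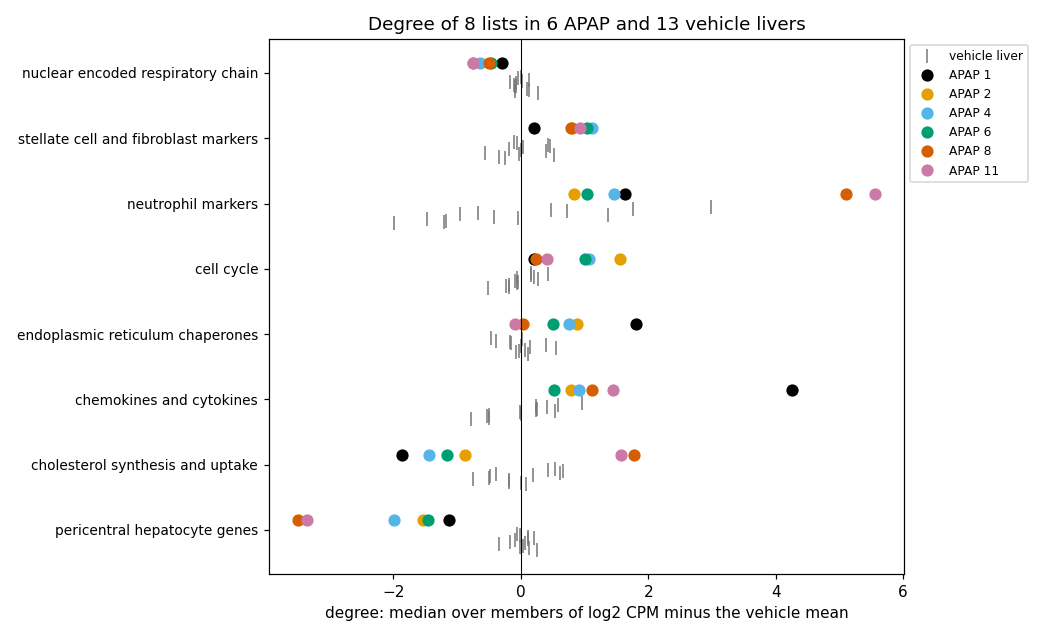
Degree of 8 gene lists in each of 13 vehicle livers (grey ticks) and 6 APAP livers (coloured points), as the median over members of log2 CPM minus the vehicle mean. For chemokines and cytokines APAP 1 stands alone at 4.25, for neutrophil markers APAP 8 and 11 stand at 5.10 and 5.56, and for cholesterol synthesis and uptake those 2 livers lie above and the other 4 below the vehicle mean.

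Markers of cells that enter or line the liver were read as lists of summed level. Neutrophil markers summed to 13.9 to 286 CPM in the APAP livers and 3.15 to 70.9 CPM in the vehicle livers. Of the 12 listed, 5 passed the filter on low counts, and of these 3 were called higher and 0 lower. S100a9, a subunit of calprotectin and abundant in neutrophils, was at 17.6, 4.23, 6.58, 5.03, 83.0 and 114 CPM against 0.517, 1.40 and 24.8 CPM (log2 fold change 3.06 ± 0.79, adjusted p = 0.0056, 2.34 without APAP 11, adjusted p = 0.035, 3.73 without vehicle 18, adjusted p = 6.5e-04). Retnlg, a neutrophil secreted protein, was at 1.10, 2.74, 4.04, 7.08, 36.1 and 44.6 CPM against 0, 0.495 and 2.21 CPM (log2 fold change 4.38 ± 0.73, adjusted p = 1.4e-04, and 3.74 without APAP 11, adjusted p = 9.4e-04). APAP 8 and 11 were the high pair in both genes, and the other APAP livers overlapped the vehicle livers in S100a9. Without vehicle 18, the vehicle liver with the highest level of S100a9, 5 of the 5 neutrophil markers were called higher.

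Monocyte and recruited macrophage markers summed to 1118 to 1588 CPM in the APAP livers and 789 to 1193 CPM in the vehicle livers. The clotting factor F10, which hepatocytes also make, holds a large part of that sum, and without it the sums were 910 to 1472 CPM and 451 to 809 CPM, with all 6 APAP livers above all vehicle livers. Of 19 tested, 14 were called higher and 1 lower, with degrees of 0.29, 1.596, 1.81, 1.596, 1.22 and 1.45 against -1.04 to 1.30. Cd68, a lysosomal protein of macrophages, was at 52.3, 57.9 and 85.4 CPM against 10.8, 24.5 and 32.0 CPM (log2 fold change 1.43 ± 0.19, adjusted p = 1.9e-05), without overlap. Trem2, a lipid receptor of macrophages in damaged tissue, was at 2.12, 5.62, 12.96, 8.82, 4.12 and 6.44 CPM against 0.244, 0.849 and 2.32 CPM (log2 fold change 2.66 ± 0.38, adjusted p = 3.0e-05). Lgals3 (galectin 3) was at 11.9, 153, 342, 155, 76.4 and 49.6 CPM against 4.51, 23.96 and 62.4 CPM (log2 fold change 2.39 ± 0.57, adjusted p = 0.0031). Both were highest in APAP 4. Itgam (CD11b), shared by monocytes and neutrophils, was at 3.22, 1.95, 2.64, 2.01, 10.6 and 10.2 CPM against 0.295, 0.469 and 2.36 CPM (log2 fold change 2.86 ± 0.44, adjusted p = 7.7e-05), highest in APAP 8 and 11. F10 was the 1 member called lower (log2 fold change -1.13 ± 0.18, adjusted p = 1.2e-04), at 91.1, 173 and 245 CPM against 273, 357 and 518 CPM.

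Resident Kupffer cell markers summed to 593 to 1163 CPM against 388 to 1091 CPM in the vehicle livers, and no APAP liver had a degree outside the range of all 13 vehicle livers. The Kupffer cell markers did differ by number range: vehicle livers numbered 1 to 4 lay at -0.82 to -0.47 and those above 4 at -0.14 to 0.64. Against these, APAP 2 and 4 lay above the vehicle livers of their own range and APAP 6 below. Of 13 tested Kupffer cell markers, 2 were called higher and 1 lower, near or under the shares over all tested genes (17.3% and 14.6%). These counts were 1 and 1 without APAP 8 or without APAP 11. Without APAP 1 or any of vehicle 1, 2 and 4 they were 2 and 2. Clec4f, the marker most restricted to these cells, was lower at 58.9, 75.3 and 125 CPM against 83.9, 133 and 206 CPM (log2 fold change -0.71 ± 0.21, adjusted p = 0.013). Marco, a scavenger receptor, was at 249, 78.5, 109, 54.2, 132 and 157 CPM against 3.03, 15.9 and 23.1 CPM (log2 fold change 3.17 ± 0.42, adjusted p = 1.6e-05), above every vehicle liver in all 6. Of 9 tested T, NK and B cell markers, summing to 6.03 to 19.6 CPM against 8.5 to 17.4 CPM, edgeR's test called 0 at the adjusted threshold and 4 at an unadjusted p under 0.05, and DESeq2 called 0.

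Stellate cell and fibroblast markers summed to 501 to 646 CPM in the APAP livers and 182 to 345 CPM in the vehicle livers, a sum that includes genes other cells share. Of 18 tested stellate cell and fibroblast markers, 12 were called higher and 0 lower, with degrees of 0.21, 0.81, 1.12, 1.04, 0.79 and 0.93 against -0.56 to 0.52. Acta2, the smooth muscle actin of activated stellate cells, was at 0.509, 33.1, 36.7, 24.02, 65.4 and 99.4 CPM against 0.664, 3.61 and 6.85 CPM (log2 fold change 3.73 ± 0.57, adjusted p = 6.5e-05), below every vehicle liver in APAP 1 and above every one in the other 5. Timp1, an inhibitor of matrix proteases, was at 42.9, 13.04, 17.2, 11.8, 9.13 and 11.2 CPM against 0, 0.481 and 5.04 CPM (log2 fold change 3.92 ± 0.66, adjusted p = 1.6e-04), above every vehicle liver in all 6 and highest in APAP 1. Loxl2, which links collagen, was at 4.49, 6.96 and 11.1 CPM against 1.58, 2.33 and 3.45 CPM (log2 fold change 1.62 ± 0.18, adjusted p = 2.5e-06). Col3a1, a fibrillar collagen, gave 21.0, 45.5, 51.8, 59.4, 12.2 and 15.1 CPM against 16.98, 29.7 and 64.1 CPM and was not called (log2 fold change 0.10 ± 0.31, adjusted p = 0.84).

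The sinusoidal endothelial markers summed to 327 to 555 CPM against 247 to 387 CPM, and of 18 tested, 6 were called higher and 2 lower, against 17.3% and 14.6% of all tested genes. Lyve1, a hyaluronan receptor, was at 122, 9.59, 11.7, 11.3, 76.9 and 59.5 CPM against 3.03, 5.39 and 7.88 CPM (log2 fold change 3.22 ± 0.41, adjusted p = 9.1e-06), above every vehicle liver in all 6. Wnt2, a ligand from central vein and nearby endothelium, was lower at 0.450, 0.628 and 1.43 CPM against 1.18, 2.02 and 2.56 CPM (log2 fold change -1.34 ± 0.26, adjusted p = 5.2e-04). Pecam1, a junction protein of all endothelium, was at 11.8, 13.7 and 18.2 CPM against 6.15, 9.01 and 9.89 CPM (log2 fold change 0.79 ± 0.11, adjusted p = 3.6e-05), without overlap. Cholangiocyte and progenitor markers summed to 19.9 to 56.5 CPM against 17.8 to 26.0 CPM. Of these markers, 2 of 9 tested were called higher, near the share of 17.3% over all tested genes. Sox9, a factor of duct cells, was at 39.0, 3.67, 3.89, 1.86, 5.44 and 4.64 CPM against 0.853, 1.39 and 2.39 CPM (log2 fold change 2.68 ± 0.45, adjusted p = 1.5e-04, and 1.38 without APAP 1, adjusted p = 2.7e-04). Afp, the fetal albumin, was at 0.339, 2.40, 2.14, 1.90, 9.03 and 9.97 CPM against 0.381, 0.648 and 1.09 CPM (log2 fold change 2.63 ± 0.42, adjusted p = 9.2e-05). No marker of these cell lists read 0 in all 19 livers. How far any cell type's share bears on the other gene lists was not tested.

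Red cell genes were highest in APAP 8 and 11. The hemoglobin share of counts was 0.288% in APAP 8 and 0.166% in APAP 11, against 0.0120% to 0.0514% in the other APAP livers and 0.00426% to 0.0231% in the vehicle livers. All livers had been perfused. Hbb-bs, a beta globin, was at 62.8, 42.2, 96.5, 162, 873 and 547 CPM against 13.3, 37.8 and 83.7 CPM (log2 fold change 2.82 ± 0.48, adjusted p = 1.9e-04, and 2.11 without APAP 8, adjusted p = 0.0016). Within mice numbered 1 to 4, 0 members of the erythroid and other tissue markers list were called higher and 2 lower, against 4 higher and 3 lower of 8 with all livers. Paralogous globins share reads, which makes their split uncertain. APAP 8 and 11, the livers with the most hemoglobin RNA, were also those with the lowest pericentral degree and the highest neutrophil degree, and the part of blood in these values was not tested.

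Genes of fibrinolysis and provisional matrix, which lay down and clear the first fibrin scaffold of a wound, rose in all 6 livers. Of 14 tested, 13 were called higher and 0 lower, with a median log2 fold change of 2.53 and degrees of 3.02, 1.74, 1.91, 1.42, 2.46 and 2.29 against -0.63 to 0.48. Plat, the tissue plasminogen activator, was at 7.80, 1.42, 1.54, 1.20, 19.8 and 8.45 CPM against 0.0738, 0.233 and 0.426 CPM (log2 fold change 4.66 ± 0.48, adjusted p = 1.1e-06, and 3.94 without APAP 8, adjusted p = 3.0e-06). Plat is 1 of the 14 tested and passed the filter on low counts through the APAP livers only. Plaur, the receptor of the urokinase type, was at 66.8, 5.06, 5.48, 3.75, 31.6 and 23.7 CPM against 0, 0.746 and 2.54 CPM (log2 fold change 4.69 ± 0.61, adjusted p = 1.2e-05, and 3.99 without APAP 1, adjusted p = 4.3e-05). These were highest in APAP 1, 8 and 11. Mmp12, a macrophage elastase, was at 20.0, 32.6, 58.9, 23.3, 1.23 and 1.59 CPM against 0.116, 0.762 and 5.57 CPM (log2 fold change 4.15 ± 0.68, adjusted p = 1.3e-04). Tnc, the matrix protein tenascin C, was at 0.424, 7.57, 11.5, 6.69, 4.31 and 10.04 CPM against 0.244, 0.407 and 1.21 CPM (log2 fold change 3.70 ± 0.40, adjusted p = 1.8e-06). Mmp12 lay in the vehicle range in APAP 8 and 11, and Tnc in APAP 1.

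Secreted hepatocyte proteins other than the acute phase set moved by smaller amounts. Of 20 tested plasma proteins and apolipoproteins, 1 was called higher and 8 lower, with a median log2 fold change of -0.38. F7, a clotting factor of short half-life, was at 21.8, 40.8 and 51.7 CPM against 54.7, 81.3 and 107 CPM (log2 fold change -1.12 ± 0.17, adjusted p = 5.7e-05), every APAP liver below every vehicle liver. Serpinc1 (antithrombin) was at 1333, 2170.1 and 3801 CPM against 3315, 4129 and 5797 CPM (log2 fold change -0.87 ± 0.18, adjusted p = 0.0011). Apoa4, an apolipoprotein of fasting and fat transport, was at 778, 120.4, 380.3, 117, 8167 and 5962 CPM against 196, 837 and 2789 CPM and was not called (log2 fold change 1.29 ± 0.74, adjusted p = 0.20, and 0.48 without APAP 8, adjusted p = 0.69), with APAP 8 and 11 high and APAP 2, 4 and 6 low. Of 16 tested hepatocyte transcription factors, 1 was called higher and 6 lower, and scaled by library total alone the count was 2 higher and 1 lower. Within mice numbered above 4, 4 of the hepatocyte transcription factors were called higher and 2 lower. Hnf4a, the master hepatocyte factor, gave 118, 152 and 187 CPM against 136, 172 and 207 CPM and was not called (log2 fold change -0.16 ± 0.10, adjusted p = 0.23). Nr1h4 (FXR), the bile acid receptor, was lower at 13.99, 26.1 and 31.6 CPM against 30.8, 45.9 and 60.6 CPM (log2 fold change -0.76 ± 0.17, adjusted p = 0.0017).

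Bile acid genes fell, most deeply in APAP 8 and 11. Of 18 tested members of the bile acid synthesis and transport list, 13 were called lower and 0 higher, with a median log2 fold change of -1.42 and degrees of -1.77, -0.90, -1.14, -0.91, -2.45 and -2.5997 against -0.63 to 0.24. Cyp7a1, the rate-limiting enzyme of the classical pathway, was at 19.3, 1.16, 0.199, 10.8, 0 and 0.104 CPM against 14.1, 82.1 and 548 CPM (log2 fold change -4.72 ± 1.16, adjusted p = 0.0042, and -5.79 without APAP 1, adjusted p = 0.0018). Cyp8b1, which sets the share of cholic acid, was at 39.3, 23.0, 20.7, 40.6, 0.763 and 3.43 CPM against 136, 248 and 436 CPM (log2 fold change -3.63 ± 0.58, adjusted p = 9.8e-05). The uptake carriers were lower as well: Slc10a1 (NTCP) was at 63.0, 117 and 160.5 CPM against 298, 466 and 780.2 CPM (log2 fold change -2.07 ± 0.23, adjusted p = 2.2e-06). Slco1b2 was at 7.12, 55.2, 35.8, 34.4, 0.365 and 3.29 CPM against 46.3, 95.3 and 152 CPM (log2 fold change -2.09 ± 0.61, adjusted p = 0.013). Abcb11 (BSEP), the export pump, was at 15.9, 42.7, 44.8, 46.8, 5.31 and 10.49 CPM against 71.6, 121 and 149 CPM (log2 fold change -2.03 ± 0.36, adjusted p = 2.3e-04). Nr0b2 (SHP), which bile acids induce through FXR, gave 4.75, 77.5, 82.0, 33.7, 22.5 and 11.1 CPM against 32.1, 74.3 and 110.4 CPM and was not called (log2 fold change -0.88 ± 0.43, adjusted p = 0.13). It was called without APAP 4 (-1.24, adjusted p = 0.042).

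Cholesterol synthesis split the APAP livers. Of 21 tested members of the cholesterol synthesis and uptake list, 1 was called higher and 4 lower, with a median log2 fold change of 0.42 that changed sign with the livers used, while 15 of the 21 had a wider spread between APAP livers than between vehicle livers (against 8.08% of the genes tested for spread). The degrees were -1.87, -0.87, -1.45, -1.16, 1.78 and 1.57 against -0.75 to 0.67: APAP 1, 2, 4 and 6 below the vehicle range and APAP 8 and 11 above it. Msmo1, a demethylation step, was at 49.4, 21.8, 17.7, 18.9, 335 and 325 CPM against 31.4, 47.3 and 105 CPM (log2 fold change 1.17 ± 0.51, adjusted p = 0.091). Sqle, the squalene oxidising enzyme, was at 2.46, 4.38, 2.79, 1.93, 70.6 and 77.3 CPM against 2.88, 5.65 and 19.7 CPM (log2 fold change 1.51 ± 0.68, adjusted p = 0.097). Neither was called in level with all livers. Msmo1 was called without APAP 2, 4 or 6 (adjusted p = 0.042, 0.038 and 0.038), and Sqle without APAP 6 (adjusted p = 0.049). Insig1, which holds back the controlling factor SREBP2, was lower at 29.9, 81.3, 37.9, 35.3, 89.9 and 107 CPM against 72.1, 136 and 178 CPM (log2 fold change -1.03 ± 0.26, adjusted p = 0.0056). The direction of the counts turned with the livers used: 0 higher and 7 lower within mice numbered 1 to 4, 5 higher and 0 lower within mice numbered above 4, 3 higher and 3 lower without APAP 1, without APAP 2 or without APAP 4, 4 higher and 3 lower without APAP 6, and 0 higher and 4 lower without APAP 8 or without APAP 11. Scaled by library total alone it was 1 higher and 0 lower. The median of the cholesterol synthesis and uptake list was -1.09 within mice numbered 1 to 4, 1.15 within mice numbered above 4, -0.068 without APAP 8, -0.21 without APAP 11 and -0.28 with limma, against 0.61 to 0.64 without 1 of the other APAP livers.

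Fatty acid synthesis genes fell, and their degree lay below the vehicle range in all 6 livers. Of 16 tested, 14 were called lower and 0 higher, with a median log2 fold change of -1.58 and degrees of -1.65, -1.28, -1.57, -1.12, -1.82 and -2.28 against -0.78 to 0.80. Acacb, an acetyl-CoA carboxylase, was at 2.04, 4.42 and 6.41 CPM against 13.9, 26.1 and 54.0 CPM (log2 fold change -2.67 ± 0.30, adjusted p = 2.9e-06). Elovl6, a chain-lengthening enzyme, was at 2.20, 3.65 and 11.6 CPM against 17.4, 36.8 and 99.1 CPM (log2 fold change -2.84 ± 0.46, adjusted p = 1.2e-04). Me1, which supplies NADPH, was at 19.8, 21.5 and 28.7 CPM against 53.4, 99.1 and 183 CPM (log2 fold change -2.19 ± 0.28, adjusted p = 1.1e-05). Thrsp, a regulator of this pathway, was at 250.01, 21.5, 7.57, 12.8, 10.95 and 7.96 CPM against 238, 537 and 771 CPM (log2 fold change -3.25 ± 0.72, adjusted p = 0.0019, and -5.34 without APAP 1, adjusted p = 1.4e-07), inside the vehicle range in APAP 1 alone. Scd1, the stearoyl desaturase, gave 1261, 1023, 1567, 2269.9, 69.3 and 58.0 CPM against 1329.5, 2294 and 7025 CPM and was not called (log2 fold change -1.47 ± 0.57, adjusted p = 0.057, and -1.86 without APAP 6, adjusted p = 0.027), with APAP 8 and 11 far below the rest.

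Of 23 tested genes of fatty acid oxidation and ketogenesis, 15 were called lower and 1 higher, with a median log2 fold change of -0.43, and without APAP 8 the count was 9 lower and 1 higher. Scaled by library total alone it was 5 lower and 2 higher. Hadh, an oxidation enzyme of the mitochondrion, was at 61.4, 108 and 159.6 CPM against 188, 208 and 236 CPM (log2 fold change -0.92 ± 0.14, adjusted p = 8.3e-05). Acaa2, the last step of the cycle, was at 350.2, 469 and 577 CPM against 598, 699.9 and 986 CPM (log2 fold change -0.73 ± 0.13, adjusted p = 3.0e-04). Vnn1, a PPAR-alpha target, was the 1 called higher (log2 fold change 0.89 ± 0.22, adjusted p = 0.0049), at 6.02, 15.5 and 23.6 CPM against 4.51, 7.71 and 11.99 CPM. The degrees of the fatty acid oxidation and ketogenesis list were -0.62, -0.45, -0.20, -0.17, -0.46 and -0.43 against -0.21 to 0.25. Cpt1a, which admits fatty acids to the mitochondrion, gave 91.7, 151 and 190.4 CPM against 71.0, 115 and 160.1 CPM and was not called (log2 fold change 0.32 ± 0.16, adjusted p = 0.13). It was called without APAP 2 (0.42, adjusted p = 0.039).

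Of 24 tested glycolysis and gluconeogenesis genes, 8 were called higher and 6 lower, against 6 and 6 without APAP 1 or without APAP 8 and 4 and 7 without APAP 11. Pklr, the liver pyruvate kinase, was lower at 21.2, 36.7 and 51.9 CPM against 96.4, 167 and 455 CPM (log2 fold change -2.55 ± 0.34, adjusted p = 1.7e-05). Pkm, the form of other tissues and dividing cells, was higher at 61.9, 101 and 125 CPM against 11.03, 20.8 and 42.9 CPM (log2 fold change 2.01 ± 0.23, adjusted p = 4.0e-06). In both the groups did not overlap. Slc2a2, the liver glucose transporter, was lower at 15.9, 49.7, 67.8, 71.1, 17.8 and 32.3 CPM against 110.2, 139 and 202 CPM (log2 fold change -1.70 ± 0.27, adjusted p = 9.6e-05). Slc2a1, the transporter of most other cells, was higher at 57.2, 10.53, 9.87, 9.59, 21.0 and 31.4 CPM against 5.30, 6.92 and 14.8 CPM (log2 fold change 1.40 ± 0.34, adjusted p = 0.0037). G6pc, which releases glucose, was at 22.1, 112, 119.8, 90.4, 15.9 and 12.5 CPM against 99.8, 224 and 353 CPM (log2 fold change -1.80 ± 0.44, adjusted p = 0.0041). Pck1, which starts its synthesis, gave 173, 803, 1535, 869, 718 and 442 CPM against 202, 808 and 1331 CPM and was not called (log2 fold change 0.018 ± 0.40, adjusted p = 0.98). Ldha, which makes lactate, was higher in all 6 livers than in any vehicle liver, at 762, 948 and 1223 CPM against 394, 511 and 692 CPM (log2 fold change 0.87 ± 0.13, adjusted p = 6.0e-05).

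Respiratory chain genes of the nuclear genome were lower. Of 22 tested nuclear encoded respiratory chain genes, 19 were called lower and 0 higher, with a median log2 fold change of -0.60. In 11 of the 22 the groups did not overlap, against 6.48% of all tested genes. Sdhb and Sdha, of complex II, had the largest falls. Sdhb was at 97.6, 125 and 213 CPM against 222, 263 and 375 CPM (log2 fold change -1.01 ± 0.15, adjusted p = 6.2e-05). Ndufa9, of complex I, had the lowest adjusted p, at 50.3, 53.8 and 66.2 CPM against 75.2, 90.2 and 101 CPM (log2 fold change -0.68 ± 0.085, adjusted p = 7.3e-06). Of 13 mitochondrially encoded respiratory chain genes, edgeR's test called 1 lower and 0 higher with a median of -0.49, and 2 lower without APAP 1. Their vehicle degrees ran over -1.13 to 1.40, wider than the APAP degrees of 0.13, -0.13, -0.24, -0.37, -0.77 and -0.22. The difference between the 2 lists was not tested.

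Genes that depend on growth hormone and are higher in males were mostly lower. Of 17 tested members of the growth hormone and male liver genes list, 11 were called lower and 2 higher, with degrees of -0.37, -1.25, -1.23, -0.74, -1.89 and -1.78 against -0.62 to 0.40. Elovl3, a male-biased elongase, was at 27.7, 7.46, 2.54, 6.46, 0.0332 and 0.346 CPM against 40.3, 152 and 186 CPM (log2 fold change -4.16 ± 0.80, adjusted p = 5.6e-04, and -5.28 without APAP 1, adjusted p = 5.2e-05). Igfals, which carries IGF1 in blood, was at 7.80, 20.5 and 37.8 CPM against 62.0, 115 and 183 CPM (log2 fold change -2.35 ± 0.32, adjusted p = 2.0e-05). Ghr, the receptor, was at 116, 131, 76.5, 106, 25.5 and 30.6 CPM against 109, 179.9 and 285 CPM (log2 fold change -1.18 ± 0.30, adjusted p = 0.0057). Socs2, a feedback inhibitor, was higher at 132, 3.79, 4.04, 25.0, 3.88 and 4.88 CPM against 0.896, 1.66 and 7.07 CPM (log2 fold change 3.70 ± 0.66, adjusted p = 2.8e-04, and 1.90 without APAP 1, adjusted p = 0.0058), by far in APAP 1 and next in APAP 6. Igf1 itself gave 724, 316, 222, 272, 191 and 288 CPM against 259, 371 and 769 CPM and was not called (log2 fold change -0.28 ± 0.26, adjusted p = 0.45). It was called without APAP 1 (-0.66, adjusted p = 0.031).

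Of 17 tested circadian clock genes, 1 was called higher and 3 lower, against 17.3% and 14.6% of all tested genes, and without APAP 1 the count was 1 higher and 5 lower. Per1 was at 117, 8.69, 5.53, 9.40, 21.5 and 9.62 CPM against 2.14, 7.01 and 9.05 CPM (log2 fold change 2.07 ± 0.46, adjusted p = 0.0019, and 0.70 without APAP 1, adjusted p = 0.049). Of 20 tested genes of the interferon response, 8 were called lower and 0 higher, against 2 lower when scaled by library total alone and 4 lower with the number range as a covariate. All vehicle degrees of that list lay between -0.80 and 0.70 and the APAP degrees were -0.15, -0.53, -0.56, -0.57, -0.94 and -0.85. Vehicle livers numbered 1 to 4 lay at -0.80 to -0.60 and those above 4 at -0.62 to 0.70, so APAP 1, 2 and 4 lay above all vehicle livers of their own range, and APAP 8 and 11 below all of theirs. The median log2 fold change of the interferon response list was -0.66 with all livers, 0.24 within mice numbered 1 to 4 and -1.10 within mice numbered above 4. The interferon response count was 0 within mice numbered 1 to 4 and 15 lower, 0 higher within mice numbered above 4.

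Among all tested genes whose groups did not overlap, with at least 10 CPM in the higher group, the 10 with the largest rise were Cidec, Ly6d, Sprr1a, Ccl7, Maff, Map3k6, Plaur, Dusp5, Thbs1 and Tnfrsf12a. Cidec, a lipid droplet protein, was at 28.5, 8.06, 6.38, 3.87, 215 and 87.9 CPM against 0.148, 0.762 and 1.40 CPM (log2 fold change 6.25 ± 0.66, adjusted p = 1.6e-06, and 5.14 without APAP 8, adjusted p = 3.5e-06), highest in APAP 8. Ly6d, a small surface protein best known from lymphoid and epithelial cells, was at 20.3, 46.0, 57.7, 38.1, 536 and 532 CPM against 0.466, 2.08 and 9.90 CPM (log2 fold change 6.11 ± 0.67, adjusted p = 2.2e-06), also highest in APAP 8 and 11. Sprr1a, a cornified envelope protein that also appears in injured tissue, had the opposite order, at 576, 115, 139.9, 112, 25.3 and 48.9 CPM against 0, 0.537 and 11.04 CPM (log2 fold change 6.08 ± 0.86, adjusted p = 3.0e-05, and 5.13 without APAP 1, adjusted p = 9.1e-05). Maff, a small partner of NRF2, was at 199, 5.55, 6.83, 6.15, 17.2 and 9.28 CPM against 0.212, 1.16 and 2.83 CPM (log2 fold change 5.06 ± 0.67, adjusted p = 1.4e-05, and 2.89 without APAP 1, adjusted p = 1.2e-05). Map3k6, a stress kinase, was at 32.9, 2.59, 2.29, 1.86, 16.1 and 11.1 CPM against 0.149, 0.321 and 0.873 CPM (log2 fold change 4.83 ± 0.50, adjusted p = 1.3e-06, and 4.13 without APAP 1, adjusted p = 1.9e-06). Dusp5, a phosphatase that restrains ERK, was at 42.2, 4.12, 2.89, 3.48, 16.2 and 7.72 CPM against 0.148, 0.424 and 1.62 CPM (log2 fold change 4.69 ± 0.51, adjusted p = 2.2e-06, and 3.81 without APAP 1, adjusted p = 2.6e-06). In these 3 genes APAP 1 was highest, then APAP 8. Thbs1 (thrombospondin 1) was at 3.65, 4.65, 2.94, 3.17, 20.5 and 27.4 CPM against 0.0943, 0.305 and 2.39 CPM (log2 fold change 4.12 ± 0.61, adjusted p = 4.5e-05), highest in APAP 11.

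By the same rule the 10 largest falls were Elovl3, Nat8f5, Slc1a2, Rhbg, Cyp8b1, Cyp26a1, Cyp2c38, Sucnr1, Cyp2c29 and Car3. Rhbg, an ammonia transporter of pericentral cells, was at 3.14, 0, 0.299, 0.658, 0.697 and 0.588 CPM against 4.81, 10.6 and 22.2 CPM (log2 fold change -3.78 ± 0.60, adjusted p = 8.7e-05, and -4.64 without APAP 1, adjusted p = 4.1e-06). Nat8f5, an acetyltransferase family gene, was at 2.71, 0.712, 0.149, 0.309, 0.863 and 0.796 CPM against 5.87, 11.3 and 28.5 CPM (log2 fold change -4.03 ± 0.54, adjusted p = 1.8e-05, and -4.62 without APAP 1, adjusted p = 3.5e-06). Cyp26a1, which clears retinoic acid, was at 2.29, 8.66, 2.14, 2.94, 0 and 0.242 CPM against 10.996, 20.9 and 43.2 CPM (log2 fold change -3.15 ± 0.67, adjusted p = 0.0014, and -4.01 without APAP 2, adjusted p = 2.4e-04). Cyp2c38 was at 5.51, 1.20, 0.897, 2.24, 0.0996 and 0.0692 CPM against 10.3, 13.4 and 20.4 CPM (log2 fold change -3.13 ± 0.57, adjusted p = 3.6e-04, and -3.95 without APAP 1, adjusted p = 1.7e-05), and closely related Cyp2c genes can share reads with it. Sucnr1, the succinate receptor, was at 1.36, 6.48, 5.68, 7.19, 0.299 and 1.70 CPM against 19.6, 28.4 and 69.8 CPM (log2 fold change -3.08 ± 0.50, adjusted p = 1.2e-04). Car3, a carbonic anhydrase abundant in male liver, was at 643, 294, 114, 392.4, 3.52 and 6.82 CPM against 1447, 1879.8 and 2791 CPM (log2 fold change -3.05 ± 0.72, adjusted p = 0.0031). Of the 10 genes, 8 had their lowest level in APAP 8 or 11.

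The spread between livers was tested apart from the level, with limma on each liver's distance from its group mean of log2 CPM (prior count 2). Of 11951 genes tested, 966 (8.08%) had a wider spread between the 6 APAP livers than between the 13 vehicle livers and 42 (0.351%) a narrower one, and 643 of the 966 were also called in level. With the group median as the centre the test called 374 wider and 1 narrower. Leaving out 1 APAP liver at a time gave 708 to 1569 calls, the lowest without APAP 8 and the highest without APAP 4. By list, wider spread was called in 15 of 21 cholesterol synthesis, 11 of 18 bile acid, 9 of 18 acetaminophen metabolism, 4 of 8 metallothionein and zinc transport, 8 of 19 pericentral, 7 of 17 growth hormone, 8 of 21 cytoskeleton and 5 of 14 fibrinolysis members tested. The other lists held at most 6 such members each. It was called in 0 of 22 chemokine, 0 of 22 nuclear encoded respiratory chain and 0 of 17 circadian clock members by limma.

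The 10 genes with the largest gain in spread were Mup19, AC109138.7, Akr1c6, Inmt, Serpina6, Car3, Cyp2a5, Cyp1a2, Derl3 and Rgn. Mup19, a major urinary protein whose close paralogs share reads, had an SD of log2 CPM of 5.35 between APAP and 1.26 between vehicle livers, and was at 339, 167, 77.9, 15.7, 0 and 0 CPM. Without APAP 8 the difference was no longer called (adjusted p = 0.055). Inmt, a methyltransferase, had an SD of 3.64 against 0.56 and was at 448, 505, 439, 675, 3.68 and 3.84 CPM against 984, 1386 and 3344 CPM. Serpina6, which carries corticosteroids in blood, had an SD of 3.03 against 0.19 and was at 46.2, 27.2, 19.7, 44.9, 0.498 and 0.485 CPM against 135, 155 and 208 CPM. Akr1c6, a steroid dehydrogenase, had an SD of 3.59 against 0.25, at 186, 422, 253, 347, 0.797 and 10.6 CPM. In each of these genes APAP 8 and 11 were the 2 lowest livers by far. Derl3, which moves misfolded proteins out of the endoplasmic reticulum, was at 269, 48.6, 63.4, 55.05, 0.531 and 0.554 CPM against 1.16, 2.41 and 9.14 CPM, above every vehicle liver in 4 livers and below every one in APAP 8 and 11, and its spread was not called without APAP 8 (adjusted p = 0.12) or without APAP 11 (adjusted p = 0.10). AC109138.7, a gene model, had the opposite order, at 8.90, 0, 0, 0, 85.0 and 84.2 CPM. Rgn, a calcium-binding protein of the liver, was at 131, 250.2, 131, 200.3, 3.42 and 4.71 CPM against 231, 389 and 509.9 CPM, again lowest in APAP 8 and 11. With the group median as the centre, 3 of these 10 genes were still called, namely AC109138.7 (adjusted p = 0.041, limma), Car3 (adjusted p = 0.037) and Cyp2a5 (adjusted p = 0.018).

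**Figure D5:**
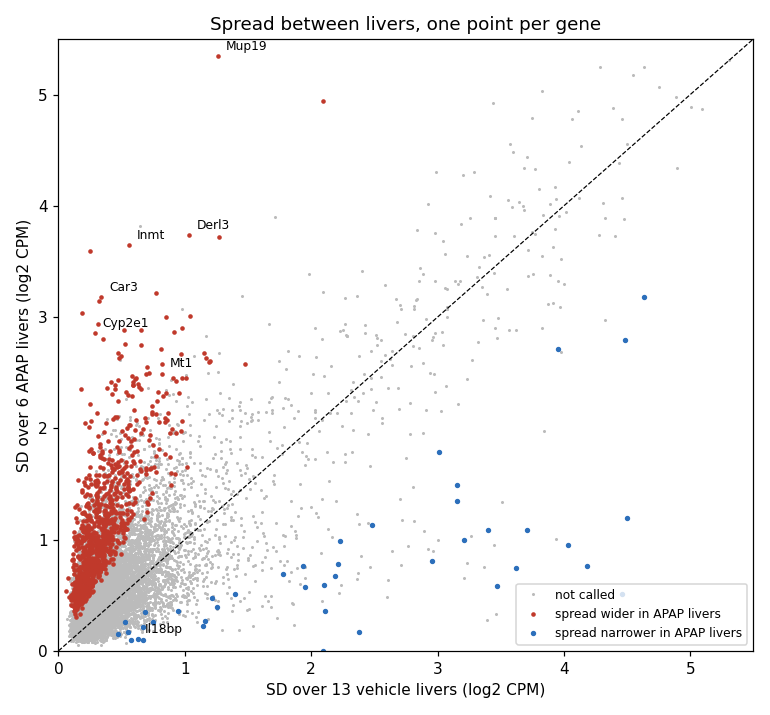
Spread between livers for each gene, as the SD of log2 CPM over 13 vehicle livers (x axis) and over 6 APAP livers (y axis), with genes called wider in red, narrower in blue and the rest grey, and a dashed line of equal spread. Mup19 lies at 1.26 and 5.35, and the 966 genes called wider lie to the upper left.

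Of the 10 genes with the largest loss of spread, 9 were small RNAs, pseudogenes or gene models listed at 0 in at least 1 vehicle liver. The other was Il18bp, the soluble trap of interleukin 18, at 19.9, 22.1 and 23.6 CPM in the APAP and 10.2, 25.9 and 33.6 CPM in the vehicle livers, with an SD of log2 CPM of 0.11 against 0.63. Its loss of spread was not called without APAP 1 (adjusted p = 0.051) or without APAP 8 (adjusted p = 0.057), nor with the group median as the centre (adjusted p = 0.30, limma).

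Whether the acetaminophen effect itself differed between mice numbered 1 to 4 (3 APAP, 4 vehicle) and mice numbered above 4 (3 APAP, 9 vehicle) was tested with an interaction term. The labels do not say what the numbers stand for. edgeR's quasi-likelihood test called 0 of 15271 genes, with 1567 at an unadjusted p under 0.05 and a lowest adjusted p of 0.126, and DESeq2 called 197. Leaving out 1 APAP liver at a time gave 0 to 315 calls in edgeR: 315 without APAP 6, 16 without APAP 2, 1 without APAP 1 or without APAP 8, and 0 without APAP 4 or without APAP 11. In edgeR with all livers the genes with the lowest p were Il18bp, Cd44, Isg15, Rnf213 and Marco. All had an effect more negative in mice numbered above 4, and none was called for this difference by that test.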

How the data were processed

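Liver RNA from the 19 mice was sequenced single-end after a stranded mRNA library preparation, per the labels' protocols. The authors deposited 1 table of estimated counts (expected counts, not whole numbers) per gene. Salmon 1.6.0, R 4.1.3 and GRCm39 are named per the submitters' processing notes, and settings beyond these are not given in the sources used here. Of 54307 gene identifiers, 51482 had a symbol. Counts were rounded, filtered on low counts with edgeR's default rule and tested with edgeR 4.0.16 (quasi-likelihood test, TMM scaling) in R 4.3.3, with Benjamini-Hochberg adjustment over all genes tested in each comparison. Spread was tested with limma 3.58.1 on absolute deviations of log2 CPM (prior count 2), leaving out genes whose mean level was under 1 CPM. DESeq2 1.42.0 was an alternative. The level test was checked on simulated counts and the spread test on simulated log2 values. The test of the number ranges was not checked on simulated data. Named genes were list members and, per test, up to 10 genes in each direction with the largest change among those called, for level with groups that did not overlap and at least 10 CPM in the higher group. The lists and tests were chosen with earlier results of these data known. Nothing beyond the replicate numbers says that the livers are separate experiments, so p-values measure the spread between these samples. The smallest values above 0 fell with gene length (Spearman's rho -0.76 over 13043 genes with 1 transcript), so levels may be scaled by length, and levels of different genes are not compared.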

Additional observations from a re-analysis of the deposited data

Results flagged for a closer look

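In 6 of the 36 gene lists and 15 of the 169 named genes, 1 of the 6 APAP livers lay farther from the other 5 than Dixon's critical value at 95% allows. Chance alone flags about 1 in 20 groups of values that were not selected. That rate does not apply to the named genes, as some were picked for a wide range or spread between these same livers. Members of a list are not independent. The liver was APAP 1 in each of these cases.

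The degree of APAP 1 was far above that of the other APAP livers for ATF4 integrated stress response (2.32), AP-1 and immediate early (2.72), acute phase (2.76), chemokines and cytokines (4.25) and circadian clock (1.17). It was far below them for stellate cell and fibroblast markers (0.21).

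On the log2 CPM scale (prior count 2), APAP 1 was the far highest liver for Atf3 (8.86), Ccl2 (9.00), Ccl7 (6.42), Cxcl1 (9.90), Glul (10.05), Hspa5 (11.74), Jun (7.19), Maff (7.64), Sox9 (5.29), Srxn1 (8.98) and Thrsp (7.97). It was the far lowest for Acta2 (-0.73), Mcm2 (0.036), Tnc (-0.95) and Trp53 (2.90). The lowest genes are of several kinds, a muscle actin, a replication helicase subunit, a matrix protein and a tumour suppressor. APAP 1 also had the lowest TMM factor of the APAP group, 0.699, and its part in these values was not tested.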

How the results depend on the processing

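The count of 4436 changed genes stayed within 1.5 times of itself with DESeq2 (4691), limma (4305), DESeq2's size factors (4423), library totals (4050), no filter (4632), a mean of at least 5 CPM (3218), the number range as a covariate (4388), mice numbered above 4 alone (2984) and without any 1 liver (3844 to 4573). It was 824 in mice numbered 1 to 4 alone and 1915 when a 2-fold or larger change was required. With the replicate block it was 230, of which 219 were among the 4436. Same-numbered livers did not deviate together in every pair (correlations of 0.050, 0.12, 0.060 and 0.012), so the numbers were not taken to pair the samples, and the block left 3 residual degrees of freedom. The spread count of 1008 was 375 around group medians, 1869 around means of group and number range, 666 with library totals and 708 to 1569 without 1 APAP liver. The count of 0 for the difference between number ranges was 197 with DESeq2 and 0 to 315 without 1 APAP liver. The cause of these shifts was not tested. Of 142 named genes called in level, 23 were called under every setting and 7 lost the call without APAP 1. With the direction unchanged, 115 lost the call with the replicate block and 58 in mice numbered 1 to 4 alone. Rnf213, called lower in level with all livers (log2 fold change -0.64, adjusted p = 0.025 in edgeR), reversed to 0.28 in mice numbered 1 to 4 alone. Depth limits genes under a few CPM, where 1 liver can hold 0 counts.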
